A study of Mus musculus with 12 samples.

Results

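What chemotherapy and dual immune checkpoint blockade given together changed in tumours of the mouse bile duct was read from 6 of the 12 tumour libraries of the study. All 6 came from 425-ICC tumours, labelled intrahepatic cholangiocarcinoma (a malignancy of bile ducts that run within the liver), and were collected after 8 days of treatment. The libraries were chosen by their labels: 3 labelled Control, from tumours given IgG (an immunoglobulin used as the control), and 3 labelled Combination, from tumours given GC together with dual ICB. The labels do not spell out GC, read here as gemcitabine plus cisplatin, and the title of the study gives CTLA-4 and PD1 as the targets of its checkpoint antibodies. The other 6 libraries, 3 from GC alone and 3 from dual ICB alone, entered the same model fit and give the levels under each single treatment. The labels state no strain, age, sex, dose or link of libraries to animals, and total RNA came from whole tumour tissue. P-values therefore measure the spread between libraries, pooled over all 12, which may in part be technical.

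Gemcitabine is a nucleoside analogue that stops DNA synthesis, and cisplatin is a platinum compound that crosslinks DNA. PD-1 and CTLA-4 are inhibitory receptors of T cells, and antibodies that block them release T cells to attack tumour cells that present antigen on MHC class I molecules. Interferons, which damaged or inflamed tissue can release, raise antigen presentation and antiviral genes in the cells around them, and hepatocytes, the main cells of the liver, secrete most plasma proteins and hold the enzymes that clear drugs.

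Levels are given as FPKM, a measure scaled to transcript length and to library size, in the order of replicates 1, 2 and 3. Differences are limma estimates ± SE of Combination minus Control (n = 3 each) on log2(FPKM + 1), a scale that understates the change of weakly expressed genes. A gene was called when its limma p-value, adjusted by the Benjamini-Hochberg method over 12695 tested genes (mean of at least 1 FPKM over the 6 libraries), was below 0.05. The FPKM of the 6 libraries summed to between 547146 and 660067, with 14533 to 16442 symbols above 0, and read depth is unknown. Replicates of Control resembled each other more than replicates of Combination did: the Spearman correlations across the tested genes were 0.908 to 0.961 in Control and 0.596, 0.770 and 0.853 in Combination. Between Control and Combination libraries they were 0.543 to 0.863, so Combination libraries were no closer to each other than some were to Control. Each SE and p-value rests on a spread pooled over all groups, so it may understate the spread within Combination.

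Combination tumours carried hepatocyte transcripts that Control tumours nearly lacked, and 1 of them was also rich in gut transcripts. Genes of the hepatocyte list (22 genes, such as albumin and fibrinogen) made up 0.0194%, 0.0174% and 0.00328% of FPKM in the Control libraries and 0.762%, 19.1% and 7.77% in the Combination libraries. Every Combination library lay above every Control library, and replicate 2 held most. The single treatments also lay above Control, at 0.441%, 0.152% and 1.37% under GC and 0.0921%, 0.283% and 0.482% under ICB, so that GC replicate 3 exceeded Combination replicate 1. The small intestinal list (21 genes) made up 1.1% of FPKM in Combination replicate 1, 0.130% and 0.0439% in replicates 2 and 3, and 0.00618% to 0.0420% in Control, so that replicate 3 was close to the highest Control library. Skeletal muscle genes were at 0.252% in Control replicate 2 and at most 0.00219% in the other 5 libraries. In bulk tissue more cells of a type and more RNA per cell cannot be told apart, and because every Combination library holds more hepatocyte transcripts than every Control library, treatment and tissue content cannot be told apart in the calls below.

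**Figure D1:**
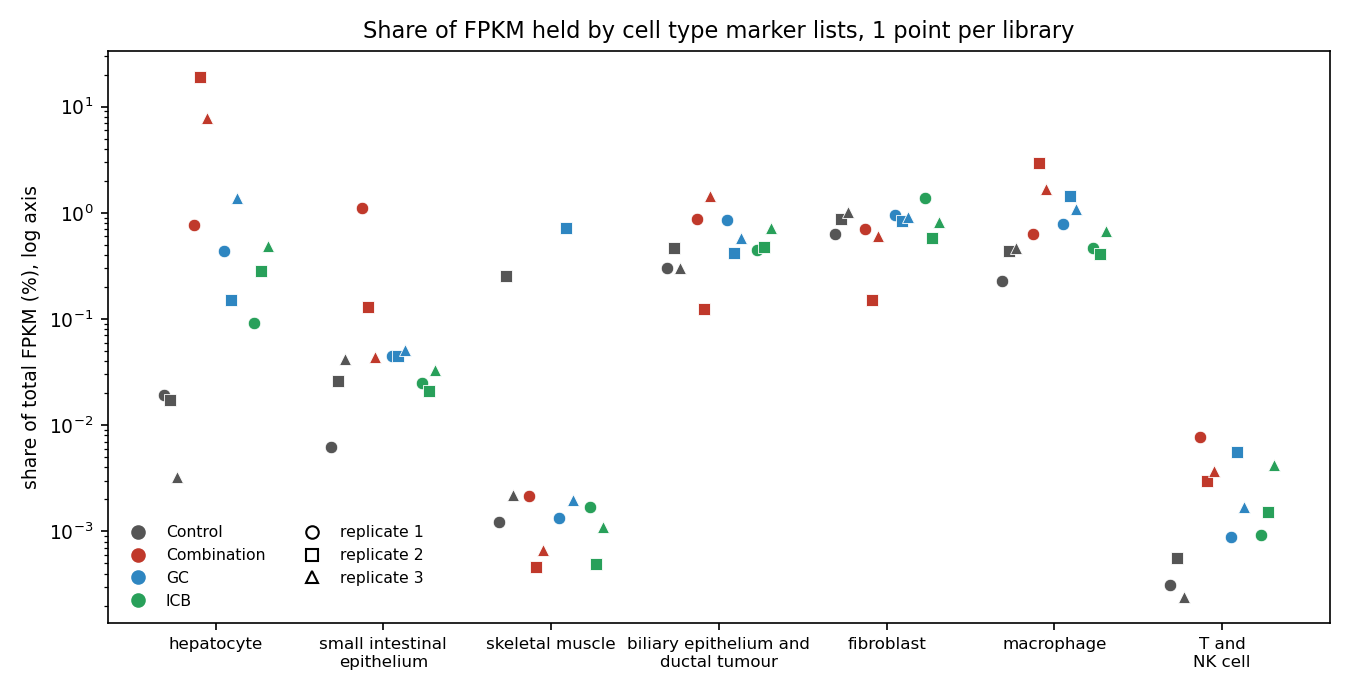
Share of total FPKM (%, log axis) held by each cell type marker list in each of the 12 libraries, with colour for the group and shape for the replicate. Hepatocyte genes reach 19.1% in Combination replicate 2 and stay at or below 0.0194% in Control, while small intestinal genes reach 1.1% in Combination replicate 1 and muscle genes 0.252% in Control replicate 2.

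Defining genes of bile duct epithelium were low or uneven in both groups. Krt19, a keratin of bile duct cells, was at 18.2, 0 and 0 FPKM in Control and 48.3, 4.11 and 3.58 FPKM in Combination. It was listed at 0 in 2 of the 3 Control libraries. The epithelial adhesion gene Epcam was at 1.5, 0.575 and 0 FPKM in Control and 126, 2.85 and 2.66 FPKM in Combination. Sox9, a transcription factor of biliary progenitors, was present in every library, at 91.9, 54.8 and 43.5 FPKM in Control and 42.5, 7.56 and 37.7 FPKM in Combination, and none of the 3 genes was called. Krt8, a keratin shared by hepatocytes, gut and bile duct, was at 6.41, 0.834 and 2.39 FPKM in Control and 157, 121 and 60.6 FPKM in Combination and rose (4.88 ± 0.88, limma adjusted p = 0.0106), a call lost without Control replicate 2 (limma adjusted p up to 0.0543). Of the 14 tested genes of the biliary list Krt8 alone was called, 12 had a positive difference and 6 were at an unadjusted p under 0.05 (median 1.33), so that Sox9, lower in every Combination library than in every Control library, went against most members. The list made up 0.303%, 0.466% and 0.305% of FPKM in Control and 0.883%, 0.123% and 1.44% in Combination. Vim, the intermediate filament of mesenchymal cells, stood at 2519.5, 2190.1 and 1785 FPKM in Control and 1329.8, 112 and 792 FPKM in Combination and was not called (-2.12 ± 0.69, limma adjusted p = 0.0955).

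Between Combination and Control 538 genes, or 4.24% of those tested, were called: 486 rose (3.83%) and 52 fell (0.41%). These shares are the background for every count of list genes below. The median difference over all 12695 tested genes was -0.29, and 4241 had a positive difference. In 1282 genes (10.1%) every Combination library lay above every Control library, and in 1678 (13.2%) every Combination library lay below. All 486 rises and all 52 falls were among these genes, so that a lack of overlap in a called gene adds nothing to its call. The genes that rose had a median difference of 2.97, and 79 of them were listed at 0 in all 3 Control libraries. A Control mean under 1 FPKM was found in 270 of the 486, and in 1098 of all 12695 tested genes. These passed the filter on low values through Combination, so their direction was fixed by the filter. This covers every rise named below whose Control values are all under 1 FPKM. It also covers such members in the counts, signs and medians of the lists below. Most of the rises were uneven within Combination: 424 of the 486 were highest in replicate 2 and 57 in replicate 1, and the highest Combination library exceeded the lowest by a median of 4.79 times. The genes that fell had a median difference of -1.49, and 48 of the 52 were lowest in replicate 2.

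The count rests on the libraries in the fit. Without Combination replicate 1 the calls were 1506 up and 1802 down, without replicate 2 they were 265 and 13, and without replicate 3 they were 284 and 88, so that the share of calls that were up went from 90.3% to 45.5%, 95.3% and 76.3%. Leaving out Control replicate 1, 2 or 3 gave 220, 215 and 220 genes up and 15, 11 and 5 down, and a fit of only the 6 Control and Combination libraries gave 88 up and 1 down. Quantile normalization gave 457 up and 471 down, so that 49.2% of calls were up. With the mean of the hepatocyte list as a covariate 53 of the 486 rises and 1 of the 52 falls were called again, and with the hepatocyte and small intestinal means together limma called 0 genes (279 at an unadjusted p under 0.05, against 3421 in the fit reported here).

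**Figure D2:**
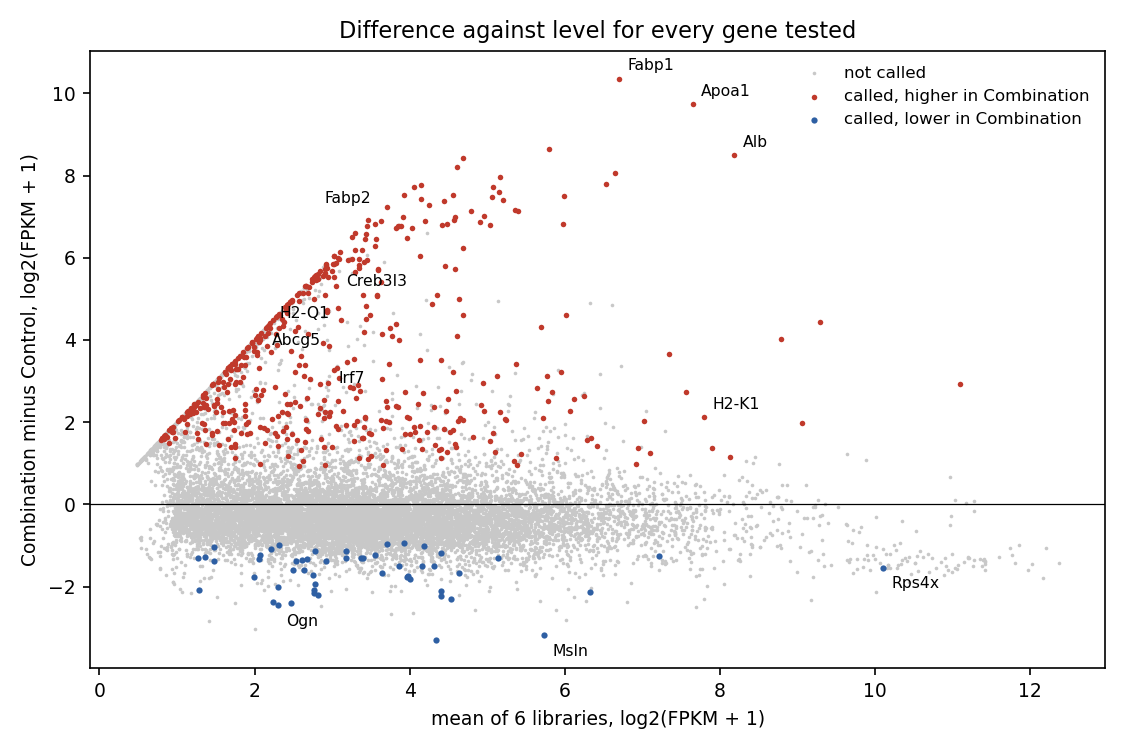
Difference between Combination and Control against the mean level over the 6 libraries, both on log2(FPKM + 1), for the 12695 tested genes, with called genes in colour. The 486 genes that rose reach differences above 10 (Fabp1), and the 52 that fell include Msln at -3.17.

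Among the rises most even across the 3 Combination libraries were genes of sterol, bile and carbohydrate handling. Abcg5 and Abcg8, transporters that pair to pump cholesterol and plant sterols into bile and the gut lumen, were both listed at 0 in all 3 Control libraries. Abcg5 stood at 18.8, 16 and 16.6 FPKM in the Combination libraries (4.18 ± 0.29, limma adjusted p = 0.000137). Abcg8 reached 8.63, 7.28 and 9.32 FPKM (3.23 ± 0.27, limma adjusted p = 0.000166). The closeness of the 3 Combination values was a condition for naming these genes, met by 76 of the 486 rises, and is no result. Both genes differed from GC alone (limma adjusted p = 0.000504 and 0.00164) and from ICB alone (limma adjusted p = 0.000174 and 0.000367). They lie on opposite strands of mouse chromosome 17. Abcg8 has 2 start sites in the RefSeq table, one 110 bases from that of Abcg5 and pointing away from it, and one at 84676302, inside Abcg5, whose window holds 0 matches to the motif marked below. The window around the former (250 bases before to 50 after it; RefSeq, GRCm38.p6, chr17:84682871-84683170, plus strand) is shown because it also holds the Abcg5 start site, with the motif of GATA transcription factors, searched on both strands as AGATAA, in capitals.
Abcg8 and Abcg5 shared promoter: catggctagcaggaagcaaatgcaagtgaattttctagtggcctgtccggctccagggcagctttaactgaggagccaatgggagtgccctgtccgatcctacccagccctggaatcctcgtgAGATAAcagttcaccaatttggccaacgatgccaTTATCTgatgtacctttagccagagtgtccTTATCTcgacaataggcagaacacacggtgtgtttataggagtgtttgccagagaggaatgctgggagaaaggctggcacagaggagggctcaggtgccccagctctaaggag
This window holds 3 matches to AGATAA, and 11.2% of all 32851 promoter windows of this length hold at least 1. The share was 6.65% for windows of tested genes and 12.9% for windows of genes that rose. Other motifs were also searched over all windows, and AGATAA alone was marked for this pair. With the mean of the hepatocyte list as a covariate Abcg5 kept a difference of 4.01 (limma adjusted p = 0.013).

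Creb3l3, a membrane-bound transcription factor of liver and small intestine that controls lipid genes (chromosome 10, 81084324 to 81098874, GRCm38, GENCODE M21), was at 0.758, 0.204 and 0.0863 FPKM in Control and 51.1, 67.4 and 38.6 FPKM in Combination. It rose by 5.3 ± 0.41 (limma adjusted p = 0.000154). Mgam, the brush border enzyme that digests starch, was at 0.192, 0.0617 and 0.0226 FPKM in Control and 11.3, 10.9 and 7.16 FPKM in Combination (3.29 ± 0.29, limma adjusted p = 0.000166). H2-Q1, an MHC class I-like heavy chain (chromosome 17, 35320405 to 35325099, same build), was listed at 0 in Control and at 17.5, 27.7 and 15.8 FPKM in Combination (4.38 ± 0.38, limma adjusted p = 0.000166). Genes of the H2-Q family are near-identical copies, so the assignment of reads to H2-Q1 is uncertain. In all 3 genes every Combination library lay far above every Control library and within a factor of 2 of the other Combination libraries. The lack of overlap and the factor of 2 were conditions for naming them.

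Smaller even rises included transporters and peroxisomal or redox enzymes. Atp8b1, the phospholipid flippase that protects the bile canaliculus, was at 0.315, 0.492 and 0.126 FPKM in Control and 4.99, 8.38 and 4.47 FPKM in Combination (2.37 ± 0.30, limma adjusted p = 0.00126). Acaa1a, the thiolase of peroxisomal fatty acid oxidation, was at 16.9, 18.4 and 17.4 FPKM in Control and 57, 99.2 and 78 FPKM in Combination (2.06 ± 0.27, limma adjusted p = 0.00131). The intracellular water channel Aqp11 (2.45 ± 0.29, limma adjusted p = 0.000835), the aldo-keto reductase Akr1c13 (2.39 ± 0.29, limma adjusted p = 0.000878) and the signalling adaptor Stap2 (2.54 ± 0.33, limma adjusted p = 0.00126) rose as well. A lack of overlap between groups was a condition for naming these 5 genes and is no result. All 5 lost their call with the mean of the hepatocyte list as a covariate, and none of the 10 even rises named here lost it without any single library.

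**Figure D3:**
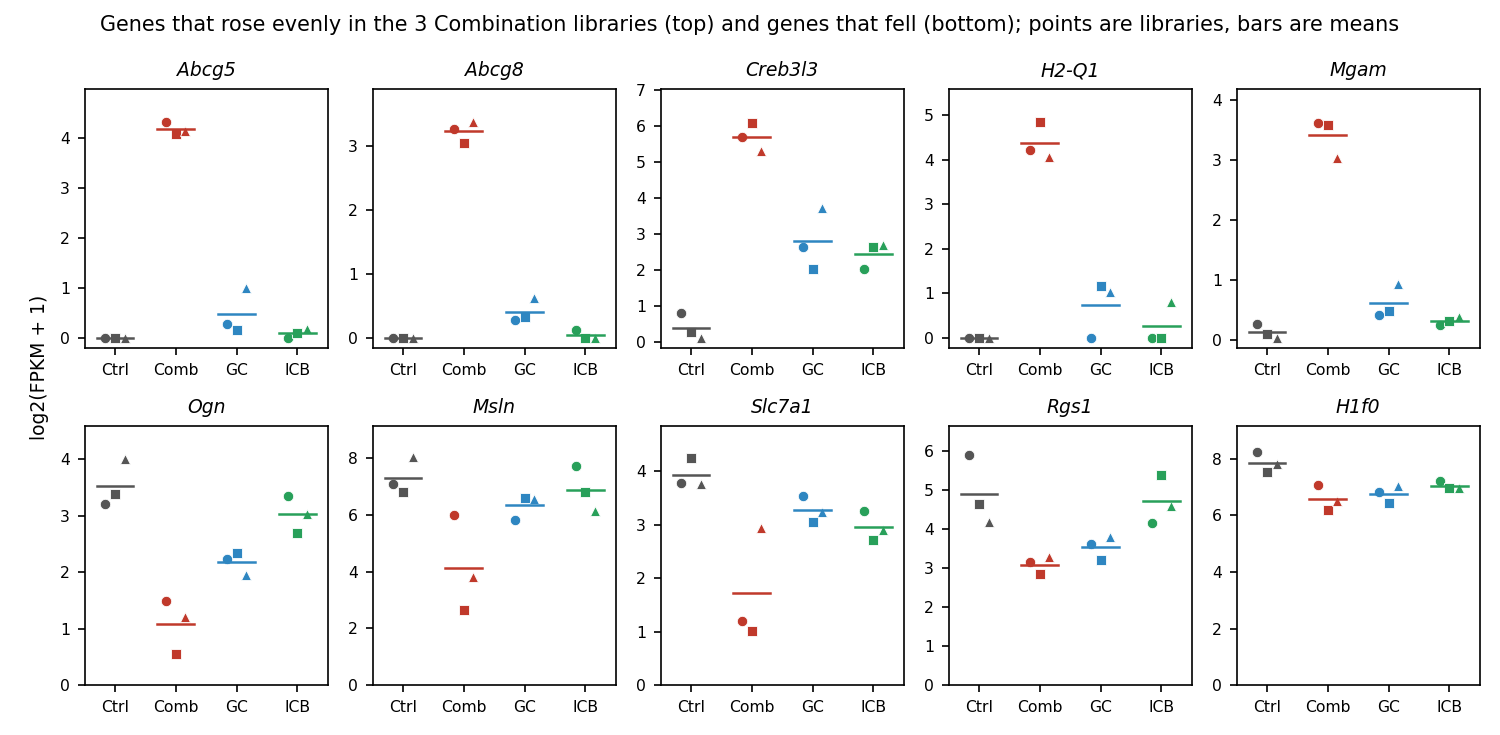
log2(FPKM + 1) of genes that rose evenly (top row) and of genes that fell (bottom row) in each library, with the group mean as a bar; panels have their own vertical axes. Abcg5, Abcg8 and H2-Q1 are listed at 0 in every Control library and lie close together in Combination, and Ogn is lower in every Combination library than in every other library.

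The largest rises were in secreted and carrier proteins of liver and gut. Fabp1, the fatty acid carrier that both tissues make, was at 1.38, 5.68 and 0.486 FPKM in Control and 2188, 6421 and 3752 FPKM in Combination (10.35 ± 0.77, limma adjusted p = 0.000154). Apoa1, the main protein of high-density lipoprotein, was at 13, 11.2 and 0.894 FPKM in Control and 3720.5, 10870.0 and 5041 FPKM in Combination (9.74 ± 1.05, limma adjusted p = 0.000546). Both were high in all 3 Combination libraries, the gut-rich replicate 1 included. Apoc3, an inhibitor of lipoprotein lipase (8.66 ± 1.05, limma adjusted p = 0.000903), and Adh1, an alcohol dehydrogenase (8.2 ± 0.93, limma adjusted p = 0.00067), followed the same order, highest in replicate 2 and lowest in replicate 1.

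Proteins made mainly by hepatocytes separated the Combination libraries from each other. Alb, the main plasma protein, was at 35.2, 24.1 and 2.95 FPKM in Control and 217, 45399 and 16867 FPKM in Combination (8.49 ± 1.69, limma adjusted p = 0.0172). Apoa2, another protein of high-density lipoprotein, was at 7.2, 5.75 and 3.25 FPKM in Control and 64.2, 8667 and 4617 FPKM in Combination (7.8 ± 1.57, limma adjusted p = 0.0182). Ttr, the carrier of thyroid hormone and retinol, was at 1.9, 1.89 and 0.399 FPKM in Control and 23.1, 4069 and 1896 FPKM in Combination (7.97 ± 1.56, limma adjusted p = 0.0159). Groups did not overlap in these 3 genes, and replicate 1 was far below replicates 2 and 3 in all of them. Apoc1, a lipoprotein component, behaved alike (8.07 ± 1.5, limma adjusted p = 0.0123). Alb missed the threshold without Control replicate 2 or 3 or Combination replicate 2 or 3 (limma adjusted p up to 0.0817), Apoa2 without any of the 3 Control libraries or Combination replicate 2 or 3 (limma adjusted p up to 0.0787), Ttr without any of the 3 Control libraries or Combination replicate 2 or 3 (limma adjusted p up to 0.0726) and Apoc1 without Control replicate 3 (limma adjusted p up to 0.0617).

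In the hepatocyte list 20 of 22 tested genes rose and 0 fell (median 7.15, against -0.29 over all genes tested). With the mean of the hepatocyte list as a covariate 2 of the 22 genes of the hepatocyte list were called, a loss that follows from a covariate made of the same 22 genes. Without any 1 of the 3 Control libraries or Combination replicate 2 or 3 there were 5 or 6, and without Combination replicate 1 all 22. In the acute phase plasma protein list 7 of 18 rose (median 4.62), among them Hamp, the iron-regulating hormone hepcidin, at 0.755, 2.0 and 0 FPKM in Control and 19.2, 3404 and 469 FPKM in Combination (7.51 ± 1.45, limma adjusted p = 0.0147). The coagulation list had 5 of 17 up (median 3.76) and the complement list 3 of 22 (median 2.54), with 0 down in each. Without any 1 of the 3 Control libraries or Combination replicate 2 the acute phase plasma protein list had 0 or 1 up, the coagulation list 0 and the complement list 0 or 1, and without Combination replicate 1 they had 15, 12 and 19. Cfb, the protease of the alternative complement pathway (5.09 ± 0.97, limma adjusted p = 0.014), and Cd55, a complement inhibitor of cell surfaces (2.61 ± 0.66, limma adjusted p = 0.0499), were 2 of the 3. Hamp missed the threshold without Control replicate 1 or 3 (limma adjusted p up to 0.0697), Cfb without Control replicate 1 or 3 (limma adjusted p up to 0.0708) and Cd55 without any of the 3 Control libraries or Combination replicate 2 or GC replicate 1 or 3 or any of the 3 ICB libraries (limma adjusted p up to 0.135).

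Lipid and glucose metabolism followed. The lipoprotein and fatty acid handling list had 12 of 25 genes up (median 3.15), and the list of urea cycle, gluconeogenesis and amino acid breakdown 9 of 18 (median 3.44), with 0 down in both. Without any 1 of the 3 Control libraries or Combination replicate 2 or 3 the lipoprotein and fatty acid handling list had 4 or 5 up and the urea cycle gluconeogenesis and amino acid breakdown list 3 or 4, and without Combination replicate 1 they had 19 and 16. Dgat2, which makes triglyceride, was at 1.98, 2.59 and 1.61 FPKM in Control and 17.9, 155 and 71.4 FPKM in Combination (4.3 ± 0.62, limma adjusted p = 0.00281). Pck1, the enzyme that commits carbon to glucose synthesis, was at 0.284, 0.944 and 0 FPKM in Control and 47, 809 and 319.7 FPKM in Combination (7.42 ± 0.84, limma adjusted p = 0.000656). Apob, the structural protein of chylomicrons and low-density lipoprotein (5.85 ± 0.69, limma adjusted p = 0.000835), and the transaminase Gpt (3.42 ± 0.46, limma adjusted p = 0.00158) rose too. Every Combination library lay above every Control library in these 4 genes, and no single library ended a call. Dgat2 and Gpt lost their call with the mean of the hepatocyte list as a covariate, and Pck1 and Apob kept it. With only the 6 Control and Combination libraries in the fit Dgat2 and Gpt lost it as well.

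Of the small intestinal list 5 of 20 genes rose (median 2.14). Fabp2, the intestinal fatty acid carrier, was at 0, 0 and 0.204 FPKM in Control and 1779, 70.3 and 31 FPKM in Combination (7.23 ± 1.14, limma adjusted p = 0.00478). Apoa4, an apolipoprotein of absorbing enterocytes, was at 9.91, 0.141 and 0 FPKM in Control and 2207, 466 and 115 FPKM in Combination (7.73 ± 1.35, limma adjusted p = 0.00901). Replicate 1 was highest in both by a wide margin. The other 3 were Mttp, which loads lipid onto apolipoprotein B (2.11, 2.54 and 3.35 FPKM in Control and 75.7, 72.8 and 33.4 FPKM in Combination; 4.0 ± 0.41, limma adjusted p = 0.000441), the microvillus cadherin Cdhr5 (5.15 ± 0.56, limma adjusted p = 0.000548) and the brush border peptidase Anpep (3.51 ± 0.58, limma adjusted p = 0.00663). Sis, the sucrase of the gut brush border and named after its values were seen, was at 25, 0.0159 and 0 FPKM in Combination and 0 in all of Control, so that replicate 1 alone was high, and it was not called (1.57 ± 0.98, limma adjusted p = 0.295). Without Combination replicates 2 and 3, replicate 1 standing alone, 19 of 20 genes of the small intestinal epithelium list and 6 of 22 of the hepatocyte list were called; the lone library is assumed to vary like the other groups.

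Some genes that process drugs rose in Combination. Of 23 tested genes in the cytochrome P450 and conjugation list 11 rose and 0 fell (median 4.83), with 9 called without any 1 of the Control libraries or Combination replicate 2 or 3 and 22 without Combination replicate 1. The mean of log2(FPKM + 1) over the list was 0.26, 0.13 and 0.24 in Control. Members with a Control mean under 1 FPKM passed the filter on low values through Combination, so their direction was fixed by it. Cyp2b10, a P450 known for its induction by drugs, was listed at 0 in Control and at 26.2, 63.6 and 14.7 FPKM in Combination (4.92 ± 0.42, limma adjusted p = 0.000166). Cyp4f14 reached 51, 109.6 and 48.8 FPKM (6.04 ± 0.50, limma adjusted p = 0.000166) and Cyp3a13 24.6, 32.4 and 11.9 FPKM (4.48 ± 0.43, limma adjusted p = 0.000311), both P450 enzymes of liver and gut that were also listed at 0 in Control. The carboxylesterase Ces2a, which cleaves ester prodrugs, was listed at 0 in Control and at 21.9, 103 and 45.9 FPKM in Combination (5.59 ± 0.56, limma adjusted p = 0.000363). Replicate 2 was highest in all 4, and all 4 kept their call with the mean of the hepatocyte list as a covariate (limma adjusted p = 0.0153, 0.0156, 0.0236 and 0.0368). Near-identical copies within the P450 and carboxylesterase families make the assignment of reads to single members uncertain.

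The nuclear receptors that control these enzymes were among the rises. Of 18 hepatic and intestinal transcription factors 7 rose and 0 fell (median 2.02), and without Combination replicate 1 the hepatic and intestinal transcription factor list had 14 up. Hnf4a, a master regulator of hepatocytes and enterocytes, was at 0.146, 0.0779 and 0 FPKM in Control and 16.2, 140.0 and 59.7 FPKM in Combination (5.62 ± 0.70, limma adjusted p = 0.00105). Nr1i2, the pregnane X receptor that senses drugs, was listed at 0 in Control and at 3.05, 16.5 and 10.6 FPKM in Combination (3.23 ± 0.47, limma adjusted p = 0.00295). Its relative Nr1i3, the constitutive androstane receptor, was at 0, 0.099 and 0 FPKM in Control and 2.68, 38.5 and 33.2 FPKM in Combination (4.05 ± 0.73, limma adjusted p = 0.0106). The groups did not overlap in any of the 3, replicate 1 was lowest in each, and with the mean of the hepatocyte list as a covariate the adjusted p was 0.0852, 0.354 and 0.789 (limma).

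A few transporters of copper and platinum were called. Of 13 copper, platinum and metallothionein genes 3 rose, 0 fell and 6 had a positive difference (median -0.07). Over all genes tested 3.83% rose. Slc31a1, the copper importer that also admits cisplatin, was at 7.09, 11.7 and 12.5 FPKM in Control and 23.5, 37.2 and 23.5 FPKM in Combination (1.35 ± 0.28, limma adjusted p = 0.0205). Abcc2, the canalicular pump that exports drug conjugates, was listed at 0 in Control and at 3.93, 35 and 25 FPKM in Combination (4.06 ± 0.62, limma adjusted p = 0.00374). Slc47a1, an exporter of cations and cisplatin, was also listed at 0 in Control and at 1.04, 37.1 and 14.9 FPKM in Combination (3.42 ± 0.80, limma adjusted p = 0.0354). Slc31a1 missed the threshold without Control replicate 1 or 2 or Combination replicate 2 (limma adjusted p up to 0.0785), and Slc47a1 without any of the 3 Control libraries or Combination replicate 2 or 3 or any of the 3 GC libraries or any of the 3 ICB libraries (limma adjusted p up to 0.11). Slc31a1, Abcc2 and Slc47a1 all lost their call with the mean of the hepatocyte list as a covariate. The same 3 lost it with only the 6 Control and Combination libraries in the fit. Of 15 genes of gemcitabine uptake, activation and targets limma called 0 (3 at an unadjusted p under 0.05), and the median was -0.20, against -0.29 over all genes tested.

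Glutathione genes, which detoxify platinum and reactive oxygen, had 7 of 23 members up and 0 down (median 1.63). Without any 1 of the Control libraries or Combination replicate 2 or 3 the glutathione synthesis and transferase list had 3 or 4 up, and without Combination replicate 1 it had 13. Gclm, a subunit of the enzyme that starts glutathione synthesis, was at 9.65, 8.82 and 9.84 FPKM in Control and 24.5, 56.8 and 36.8 FPKM in Combination (1.87 ± 0.29, limma adjusted p = 0.00374). Gstk1, a transferase of mitochondria and peroxisomes, was at 1.59, 0.86 and 1.37 FPKM in Control and 19.3, 119 and 55.8 FPKM in Combination (4.52 ± 0.53, limma adjusted p = 0.000854), and Gstm3, a transferase with near-identical relatives, was listed at 0 in Control and at 6.22, 76.9 and 51.1 FPKM in Combination (4.95 ± 0.83, limma adjusted p = 0.0071). All Combination libraries lay above all Control libraries in these 3 genes. All 3 lost their call with the mean of the hepatocyte list as a covariate. Gclm and Gstm3 also lost it with only the 6 Control and Combination libraries in the fit. Of 21 targets of NRF2, the antioxidant transcription factor, 2 rose (median 0.09): Gclm and Cbr1, a carbonyl reductase (2.57 ± 0.29, limma adjusted p = 0.000656). Over all genes tested 3.83% rose. Cbr1 lost its call with the mean of the hepatocyte list as a covariate. The p53 targets, which respond to DNA damage, had 2 of 22 up and 0 down (median -0.13). Of the 22 genes 9 had a positive difference, and groups did not overlap in 2 that were higher and 3 that were lower. The 2 that rose were the death receptor Fas, at 0.866, 1.45 and 1.84 FPKM in Control and 5.85, 19.4 and 7.17 FPKM in Combination (2.15 ± 0.37, limma adjusted p = 0.00834), and the junction protein Perp, at 6.81, 2.4 and 5.0 FPKM in Control and 25.4, 47.9 and 21.5 FPKM in Combination (2.5 ± 0.40, limma adjusted p = 0.00532). Both lost their call with the mean of the hepatocyte list as a covariate and with only the 6 Control and Combination libraries.

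Some antiviral genes rose in Combination. In the type I interferon response list all 23 tested genes had a positive difference (median 1.33), 7 rose and 0 fell, and in 19 of 23 every Combination library lay above every Control library, against 10.1% of all genes tested. Members with a Control mean under 1 FPKM, such as Rtp4, passed the filter on low values through Combination. Their direction was fixed by the filter, so these counts are in part no result. Irf7, a transcription factor that boosts the making of interferon (chromosome 7, 141262706 to 141266481, GRCm38, GENCODE M21), was at 1.06, 4.31 and 0.934 FPKM in Control and 30.9, 23.8 and 11.3 FPKM in Combination (2.95 ± 0.63, limma adjusted p = 0.0234). Rtp4, an interferon-induced chaperone, was at 0.464, 0.764 and 0.563 FPKM in Control and 8.09, 6.52 and 4.33 FPKM in Combination (2.17 ± 0.43, limma adjusted p = 0.0176). Zbp1, a sensor of Z-form nucleic acid that triggers cell death, was at 1.07, 4.56 and 1.8 FPKM in Control and 19.9, 16.7 and 10.6 FPKM in Combination (2.35 ± 0.51, limma adjusted p = 0.0265). Combination replicate 1 was the highest of the 6 libraries in all 3 genes, unlike the hepatocyte genes. Bst2, which tethers budding viruses, was at 20.0, 27.2 and 26.2 FPKM in Control and 67.1, 201 and 93.4 FPKM in Combination (2.11 ± 0.48, limma adjusted p = 0.0329), and here replicate 2 was highest. Ifit3, a binder of foreign RNA (2.28 ± 0.52, limma adjusted p = 0.0338), Oasl1, a member of the oligoadenylate synthetase family (2.09 ± 0.49, limma adjusted p = 0.036), and Isg15, a ubiquitin-like modifier, at 4.42, 5.18 and 2.64 FPKM in Control and 40.1, 14.5 and 9.79 FPKM in Combination (1.94 ± 0.49, limma adjusted p = 0.0499), completed the 7, Ifit3, Oasl1 and Isg15 being named after their values were seen.

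The calls in the type I interferon response list were not firm. Limma called 0 of its genes without Control replicate 1, Control replicate 3 or Combination replicate 2, with only the 6 Control and Combination libraries in the fit and with the mean of the hepatocyte list as a covariate, and without Combination replicate 1 there were 11. The median of the type I interferon response list was 1.44 without Combination replicate 2 and 2.38 with the mean of the hepatocyte list as a covariate, with all 23 genes positive in both. The median over all genes tested was -0.29 in the fit reported here, -0.04 without Combination replicate 2 and 0.36 with that covariate. Irf7 missed the threshold without Control replicate 1 or 3 or Combination replicate 2 (limma adjusted p up to 0.102), Rtp4 without any of the 3 Control libraries or Combination replicate 2 (limma adjusted p up to 0.071), Zbp1 without Control replicate 1 or 3 or Combination replicate 2 (limma adjusted p up to 0.109) and Bst2 without any of the 3 Control libraries or Combination replicate 2 or 3 or GC replicate 3 or ICB replicate 1 or 2 (limma adjusted p up to 0.117). Ifit3 lost its call without Control replicate 1 or 3 or Combination replicate 2 or GC replicate 3 or any of the 3 ICB libraries (limma adjusted p up to 0.123), Oasl1 without any of the 3 Control libraries or Combination replicate 2 or GC replicate 3 or any of the 3 ICB libraries (limma adjusted p up to 0.125) and Isg15 without any of the 3 Control libraries or Combination replicate 2 or GC replicate 1 or 3 or any of the 3 ICB libraries (limma adjusted p up to 0.157).

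Promoter windows of 3 called genes are shown because they carry the interferon-stimulated response element, searched on both strands as GAAA, any 2 bases and GAAA again and set in capitals, with overlapping matches joined into 1 run (RefSeq, GRCm38.p6, 250 bases before to 50 after the start site). They are Isg15 (chr4:156200769-156201068, minus strand), Ifit3 (chr19:34583279-34583578, plus strand) and Lgals9 (chr11:78984875-78985174, minus strand), the last a checkpoint ligand described below.
Isg15: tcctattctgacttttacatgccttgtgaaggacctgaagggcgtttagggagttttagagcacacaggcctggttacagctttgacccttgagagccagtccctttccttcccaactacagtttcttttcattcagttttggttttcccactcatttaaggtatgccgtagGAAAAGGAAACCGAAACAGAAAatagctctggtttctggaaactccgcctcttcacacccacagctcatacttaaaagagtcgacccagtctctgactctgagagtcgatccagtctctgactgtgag
Ifit3: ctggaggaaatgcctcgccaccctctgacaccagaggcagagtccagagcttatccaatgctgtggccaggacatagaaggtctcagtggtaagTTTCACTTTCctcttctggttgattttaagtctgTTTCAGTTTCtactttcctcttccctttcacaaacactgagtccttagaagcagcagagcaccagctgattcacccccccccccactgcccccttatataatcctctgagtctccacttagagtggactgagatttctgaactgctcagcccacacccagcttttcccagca
Lgals9: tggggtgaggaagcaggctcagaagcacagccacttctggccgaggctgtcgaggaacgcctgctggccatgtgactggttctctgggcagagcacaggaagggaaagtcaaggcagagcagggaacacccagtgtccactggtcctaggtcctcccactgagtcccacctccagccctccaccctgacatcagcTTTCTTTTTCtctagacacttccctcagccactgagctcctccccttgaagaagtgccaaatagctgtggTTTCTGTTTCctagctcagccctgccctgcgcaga
The Isg15 window holds 3 matches, and the other 2 windows shown hold 2 each. Of other called interferon genes, the window of Bst2 holds 2 matches and those of Irf7 and Oasl1 hold 0. In the type I interferon list 11 of 17 genes with a window had a match, as did 12 of 20 windows, and 3.44% of all 32851 windows hold one. Among the 486 genes that rose 362 had a window and 19 of these had a match (5.25%, against 3.77% of tested genes with a window).

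Genes that present antigen to T cells followed. Of 18 tested MHC class I presentation genes 3 rose and 0 fell (median 0.89), and 16 had a positive difference. Without any 1 of the 3 Control libraries or Combination replicate 2 limma called 0 genes of the MHC class I presentation list. H2-K1, a classical class I heavy chain, was at 107, 103 and 107 FPKM in Control and 350.3, 747 and 378 FPKM in Combination (2.12 ± 0.44, limma adjusted p = 0.0212). Tap2, a subunit of the peptide transporter, was at 6.54, 6.79 and 6.31 FPKM in Control and 18.4, 16.3 and 11.7 FPKM in Combination (1.1 ± 0.26, limma adjusted p = 0.0392). Control libraries were tightly grouped and all Combination libraries lay above them in both genes. H2-Q10, a secreted class I chain made by hepatocytes, was at 3.78, 3.57 and 0.615 FPKM in Control and 12.5, 879 and 442 FPKM in Combination (5.73 ± 1.27, limma adjusted p = 0.0282). B2m, the light chain of class I, was at 454, 556 and 561 FPKM in Control and 884, 1805 and 1123 FPKM in Combination and did not pass (1.22 ± 0.32, limma adjusted p = 0.059), although its groups did not overlap. The immunoproteasome subunit Psmb9, at 3.28, 11.6 and 10.4 FPKM in Control and 30.9, 28.8 and 20.0 FPKM in Combination, did not pass either (1.67 ± 0.43, limma adjusted p = 0.0534). Of 19 interferon gamma response genes limma called 0, with 12 at an unadjusted p under 0.05 and 16 positive (median 0.97). H2-K1 missed the threshold without any of the 3 Control libraries or Combination replicate 2 (limma adjusted p up to 0.0796), Tap2 without any of the 3 Control libraries or Combination replicate 2 or GC replicate 3 or any of the 3 ICB libraries (limma adjusted p up to 0.126) and H2-Q10 without any of the 3 Control libraries or Combination replicate 2 or 3 or ICB replicate 2 (limma adjusted p up to 0.113). The class I heavy chains are near-identical copies, so reads may be split between them.

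Lipid antigen presentation was represented by Cd1d1, which presents glycolipids to natural killer T cells. It was at 0.577, 1.87 and 2.96 FPKM in Control and 5.02, 72.9 and 34.8 FPKM in Combination (3.26 ± 0.71, limma adjusted p = 0.0254) and was the only one of 10 tested genes of the class II and CD1 list to be called (median 1.27). The call was lost without any of the 3 Control libraries or Combination replicate 2 or 3 (limma adjusted p up to 0.108). Near-identical Cd1d2 makes its reads uncertain.

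Cytotoxic lymphocyte transcripts were low in Combination, nearly absent from Control, and did not pass the test. Gzma, a granule protease of T and natural killer cells, stood at 31.5, 3.3 and 2.2 FPKM in Combination and was listed at 0 in all of Control (2.94 ± 0.79, limma adjusted p = 0.0594). Gzmb, the protease that starts apoptosis in target cells, was at 0, 0 and 0.0598 FPKM in Control and 5.12, 1.75 and 2.02 FPKM in Combination (1.86 ± 0.51, limma adjusted p = 0.0611). Nkg7, a granule membrane protein, was listed at 0 in Control and at 2.36, 1.82 and 2.0 FPKM in Combination (1.61 ± 0.47, limma adjusted p = 0.0764). Every Combination library lay above every Control library in all 3 genes, and the gut-rich replicate 1 was highest in each. Of the 19 genes of the T and NK cell list found, 4 reached a mean of 1 FPKM. Limma called 0 of these 4, and all 4 were at an unadjusted p under 0.05. All 4 were below 1 FPKM in every Control library and passed the filter on low values through Combination, so their direction was fixed by the filter. The list made up 0.000242% to 0.000558% of FPKM in Control and 0.00771%, 0.00299% and 0.00369% in Combination. Cd3d, Cd4, Cd8a, Ifng and Foxp3, which mark T cells and their subsets, were below the level tested.

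Of 8 tested chemokines that draw T cells limma called 0 (3 at an unadjusted p under 0.05; median 1.32). Ccl5, which recruits T cells, was at 1.44, 2.86 and 0.929 FPKM in Control and 17.6, 5.82 and 10.8 FPKM in Combination (2.12 ± 0.57, limma adjusted p = 0.0591), with no overlap between groups. Ccl22, a chemokine of mature dendritic cells, was at 0.493, 0.722 and 0.265 FPKM in Control and 2.09, 3.32 and 3.03 FPKM in Combination (1.35 ± 0.35, limma adjusted p = 0.0549), again with no overlap. Neither was called.

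Among checkpoint receptors and ligands 3 of 11 tested genes rose and 0 fell (median -0.03), against 3.83% up over all genes tested. All 3 were ligands, and 5 of the 11 had a positive difference. Ceacam1, a ligand of TIM-3 that epithelial cells also carry, was at 0.51, 1.38 and 1.64 FPKM in Control and 12.8, 34.5 and 11.6 FPKM in Combination (3.12 ± 0.43, limma adjusted p = 0.00201). Lgals9, galectin-9, was at 15.5, 26.4 and 26.1 FPKM in Control and 66.6, 306 and 111 FPKM in Combination (2.53 ± 0.47, limma adjusted p = 0.0126). Fgl1, a hepatocyte-secreted ligand of LAG-3, was at 0.354, 0 and 0 FPKM in Control and 8.0, 807 and 270.4 FPKM in Combination (6.83 ± 1.42, limma adjusted p = 0.0212). The groups did not overlap in any of the 3, and Combination replicate 2, the library richest in hepatocyte genes, was highest in each. With the mean of the hepatocyte list as a covariate the differences were 2.51 for Ceacam1 (limma adjusted p = 0.172), 1.06 for Lgals9 (limma adjusted p = 0.55) and -0.73 for Fgl1 (limma adjusted p = 0.733). Lgals9 also missed the threshold without Control replicate 1 (limma adjusted p up to 0.0637) and Fgl1 without any of the 3 Control libraries or Combination replicate 2 or 3 (limma adjusted p up to 0.0817). The receptors Pdcd1 and Ctla4, which encode PD-1 and CTLA-4, were below the level tested.

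**Figure D4:**
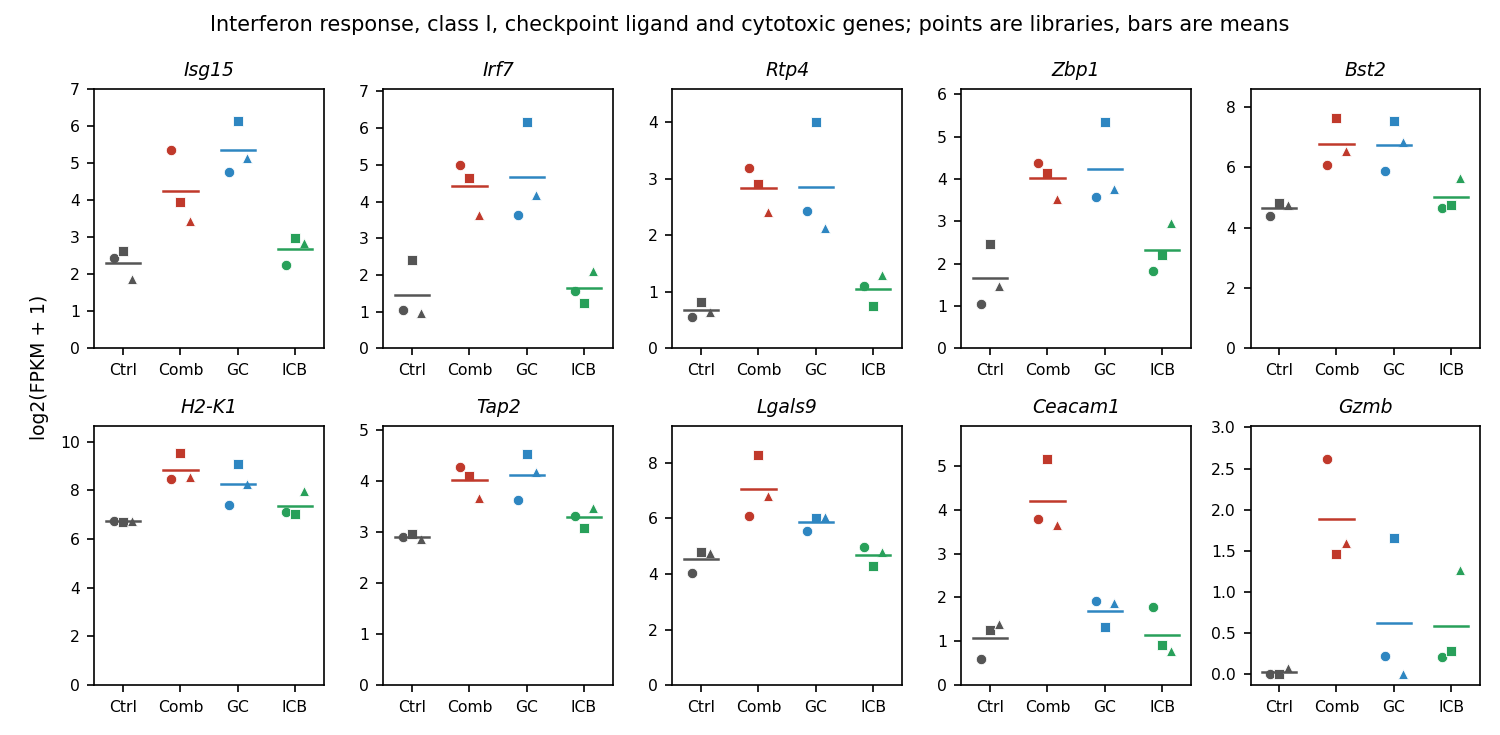
log2(FPKM + 1) of interferon response, class I, checkpoint ligand and cytotoxic genes in each library, with the group mean as a bar; panels have their own vertical axes. Isg15, Irf7, Rtp4, Zbp1 and Bst2 lie at overlapping levels in Combination and GC, and in these 5 genes, Ceacam1 and Gzmb every Combination value lies above every Control value.

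Myeloid lists gave few calls. Of 14 macrophage genes Apoe, a lipid carrier that hepatocytes also make, was the only one called, at 771, 827 and 783 FPKM in Control and 1878, 14884 and 7802 FPKM in Combination (2.92 ± 0.63, limma adjusted p = 0.0241). It missed the threshold without any of the 3 Control libraries or Combination replicate 2 or 3 (limma adjusted p up to 0.0872). The median of the macrophage list was -0.05, and limma called 0 of 14 monocyte and neutrophil genes (2 at an unadjusted p under 0.05; median -0.02).

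Genes that fell included matrix and surface genes. Ogn, a small proteoglycan of the matrix, was at 8.22, 9.45 and 15 FPKM in Control and 1.81, 0.463 and 1.31 FPKM in Combination (-2.45 ± 0.31, limma adjusted p = 0.00116), and no single library ended its call. The call of Ogn was lost with the mean of the hepatocyte list as a covariate and with only the 6 Control and Combination libraries. Msln, mesothelin, a surface glycoprotein of mesothelium and many carcinomas, was at 136, 111 and 262 FPKM in Control and 62.5, 5.23 and 12.9 FPKM in Combination (-3.17 ± 0.72, limma adjusted p = 0.0317). Slc7a1, the importer of arginine and lysine, was at 12.7, 17.9 and 12.6 FPKM in Control and 1.3, 1.0 and 6.63 FPKM in Combination (-2.21 ± 0.43, limma adjusted p = 0.0154). The groups did not overlap in any of these, and replicate 2 was lowest in each. The surface protease Adam8 (-2.29 ± 0.56, limma adjusted p = 0.043), the Notch pathway ligand Dlk2 (-2.4 ± 0.55, limma adjusted p = 0.0326), the actin-binding coronin Coro6 (-2.38 ± 0.50, limma adjusted p = 0.0217) and the transcription factor Osr1 (-2.22 ± 0.54, limma adjusted p = 0.0431) fell too. So did the transcriptional regulator Sertad4 (-2.16 ± 0.53, limma adjusted p = 0.0446) and the noncoding host of small nucleolar RNAs Snhg12 (-2.12 ± 0.48, limma adjusted p = 0.0302).

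Apart from that of Ogn, these falls depended on single libraries. Msln missed the threshold without any of the 3 Control libraries or Combination replicate 2 or 3 or ICB replicate 2 (limma adjusted p up to 0.126), Slc7a1 without any of the 3 Control libraries or Combination replicate 2 (limma adjusted p up to 0.0705), Coro6 without Control replicate 1 or 3 or Combination replicate 2 (limma adjusted p up to 0.0939) and Snhg12 without any of the 3 Control libraries or Combination replicate 2 or 3 or ICB replicate 1 (limma adjusted p up to 0.117). Dlk2 lost its call without Control replicate 1 or 3 or Combination replicate 2 or 3 or GC replicate 1 or 2 or ICB replicate 3 (limma adjusted p up to 0.13), Adam8 without any of the 3 Control libraries or Combination replicate 2 or any of the 3 GC libraries or any of the 3 ICB libraries (limma adjusted p up to 0.143), Osr1 without any of the 3 Control libraries or Combination replicate 3 or any of the 3 GC libraries or any of the 3 ICB libraries (limma adjusted p up to 0.134) and Sertad4 without any of the 3 Control libraries or Combination replicate 2 or GC replicate 1 or 3 or any of the 3 ICB libraries (limma adjusted p up to 0.147). Of all 52 falls 2 were called without each of the 6 Control and Combination libraries in turn, Ogn among them, against 182 of the 486 rises.

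Falls that were even across Combination were smaller. Rgs1, a brake on chemokine receptor signalling in lymphocytes, was at 58.6, 24.2 and 17.1 FPKM in Control and 7.87, 6.22 and 8.7 FPKM in Combination (-1.82 ± 0.43, limma adjusted p = 0.0369). H1f0, the linker histone of resting cells, was at 298, 183 and 221 FPKM in Control and 133, 72.4 and 88.5 FPKM in Combination (-1.26 ± 0.30, limma adjusted p = 0.0379), and Cbx7, a Polycomb subunit, at 9.82, 8.45 and 9.29 FPKM in Control and 4.17, 2.52 and 4.51 FPKM in Combination (-1.13 ± 0.28, limma adjusted p = 0.0477). No values overlapped between groups. The kinase Pkn2 (-0.95 ± 0.22, limma adjusted p = 0.0325), the poly(A) ribonuclease Parn (-0.95 ± 0.23, limma adjusted p = 0.0395), the anchoring protein Akap2 (-1.37 ± 0.32, limma adjusted p = 0.0348) and Far1, which makes the alcohols of ether lipids (-1.38 ± 0.33, limma adjusted p = 0.0413), belonged to this group. So did the scaffold Card10 (-1.0 ± 0.25, limma adjusted p = 0.0439), the corepressor subunit Tbl1x (-1.0 ± 0.24, limma adjusted p = 0.0437) and Ggnbp1 (-1.22 ± 0.30, limma adjusted p = 0.0448). Each of these 10 missed the threshold without 8 to 11 of the 12 libraries left out in turn, Combination replicate 2 among them, with limma adjusted p-values up to 0.144 (Card10).

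Growth and housekeeping lists leaned lower with few calls. All 24 tested cytosolic ribosomal protein genes had a negative difference (median -1.49), and Rps4x was the 1 that fell, at 2107, 1657 and 1886 FPKM in Control and 1041, 350.5 and 736 FPKM in Combination (-1.54 ± 0.36, limma adjusted p = 0.0379). It missed the threshold without any of the 3 Control libraries or Combination replicate 3 or any of the 3 GC libraries or any of the 3 ICB libraries (limma adjusted p up to 0.119), and without Combination replicate 1 all 24 genes of the cytosolic ribosomal protein list were called. In the glycolysis list limma called 0 of 16 genes, 13 were at an unadjusted p under 0.05 and all were negative (median -1.30). Its member of smallest p was Hk1, the hexokinase that traps glucose, at 45.3, 32.1 and 27.2 FPKM in Control and 14.6, 3.12 and 18.7 FPKM in Combination (-1.7 ± 0.50, limma adjusted p = 0.0789). The hypoxia response list had 1 of 15 down (median -1.20), the histone demethylase Kdm3a, at 40.2, 21.2 and 25.2 FPKM in Control and 5.99, 3.9 and 17.1 FPKM in Combination (-1.76 ± 0.43, limma adjusted p = 0.0413). In these lists Combination replicate 2, in which hepatocyte genes hold 19.1% of FPKM, was the lowest library for all 3 genes named, and the part of that share in the result was not tested.

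Proliferation genes were not called. Of 20 mitosis genes (median -0.53) and 23 DNA replication genes (median -0.69) limma called 0, with 0 and 3 at an unadjusted p under 0.05, and every one had a negative difference. The mean of log2(FPKM + 1) over the mitosis list was 2.41, 4.39 and 4.66 in Control and 4.59, 2.04 and 3.29 in Combination. Over the DNA replication list it was 3.21, 4.52 and 4.51 in Control and 4.47, 2.27 and 3.54 in Combination. The groups overlapped in both lists, and Combination replicate 2 was lowest. Of 20 DNA damage repair genes (median -0.59) 1 fell: Apex1, the endonuclease of base excision repair, at 44.3, 66.6 and 53.8 FPKM in Control and 29.9, 14.4 and 22.3 FPKM in Combination (-1.31 ± 0.30, limma adjusted p = 0.0338). Among 19 genes of the unfolded protein and integrated stress responses (median 0.30) 1 fell, the stress transcription factor Atf3, at 30.7, 15.8 and 19.6 FPKM in Control and 9.13, 4.05 and 5.65 FPKM in Combination (-1.67 ± 0.34, limma adjusted p = 0.019). Under median-ratio scaling, which moves the median over all genes from -0.29 to 0.01, the differences of Apex1 and Atf3 were -0.96 and -1.36, and Atf3 was no longer called (limma adjusted p = 0.071). With equal FPKM totals Apex1 was no longer called (-1.19, limma adjusted p = 0.0525). Apex1 missed the threshold without any of the 3 Control libraries or Combination replicate 2 or 3 or any of the 3 GC libraries or ICB replicate 3 (limma adjusted p up to 0.126), Atf3 without Control replicate 1 or 3 or Combination replicate 2 or 3 (limma adjusted p up to 0.0782) and Kdm3a without any of the 3 Control libraries or Combination replicate 2 or any of the 3 GC libraries or any of the 3 ICB libraries (limma adjusted p up to 0.139).

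Stromal lists held few calls. Limma called 0 of 17 collagens (1 at an unadjusted p under 0.05; median -0.82) and 0 of 18 genes of matrix crosslinking and remodelling (4 at that level; median -0.52). It called 0 of 19 genes of TGF-beta signalling, which activates fibroblasts (3 at that level; median -0.63). In the fibroblast list 1 of 17 fell, Ogn (median -0.43), and the list made up 0.638%, 0.876% and 1.02% of FPKM in Control and 0.704%, 0.152% and 0.600% in Combination. Of 13 endothelial genes limma called 0 (1 at an unadjusted p under 0.05; median 0.06).

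**Figure D5:**
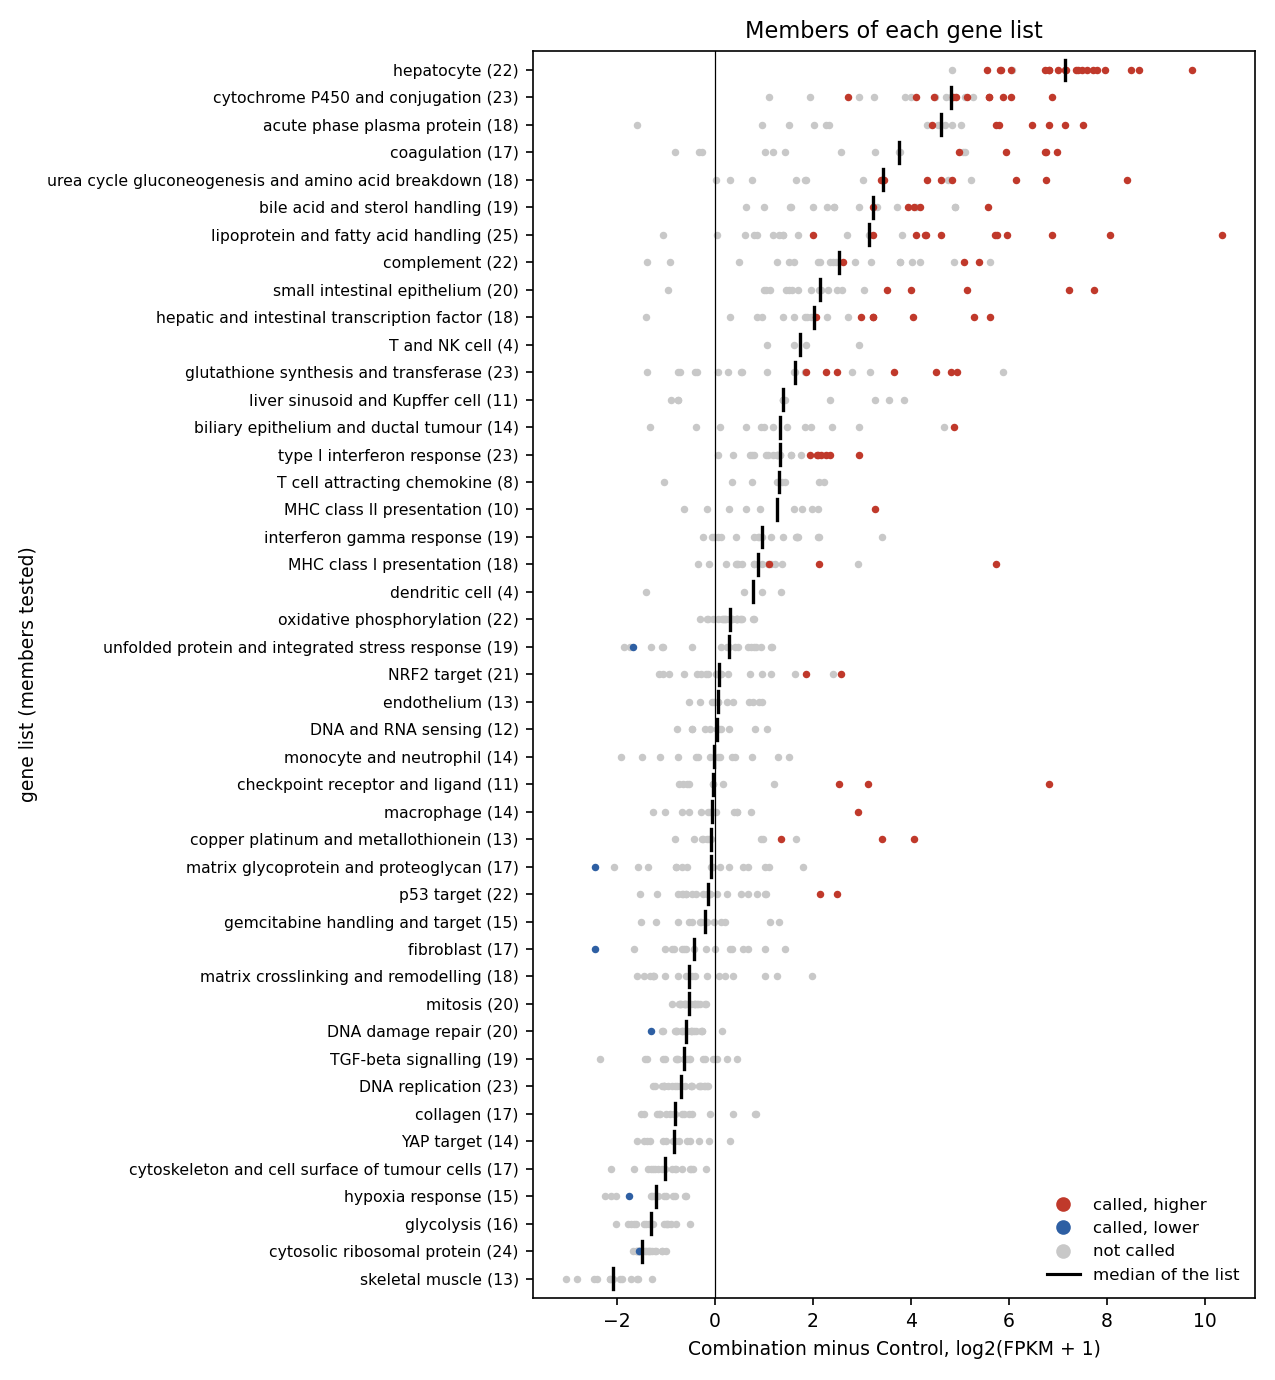
Combination minus Control on log2(FPKM + 1) for every tested gene of each list with at least 3 tested genes, ordered by the list's median (black bar), with genes called higher in red and lower in blue. Hepatocyte genes lie highest (median 7.15), the type I interferon (1.33) and class I (0.89) lists have medians above 0, and cytosolic ribosomal protein (median -1.49) and muscle genes lie lowest.

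Combination was also set against each single treatment. Limma called 89 genes (0.701%) between Combination and GC alone, of which 86 were higher in Combination (0.677%) and 3 lower (0.0236%). Between Combination and ICB alone it called 303 genes (2.39%), 278 higher (2.19%) and 25 lower (0.197%). The 3 comparisons share the Combination libraries, so they are not independent.

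Limma called 0 of the 7 interferon response genes named above between Combination and GC alone (adjusted p = 0.294 for Isg15 to 0.987 for Bst2) and 1, Irf7, between Combination and ICB alone. Irf7 was at 11.4, 70.6 and 17.2 FPKM in the GC libraries and 1.98, 1.35 and 3.27 FPKM in the ICB libraries, and Combination differed from GC by -0.24 ± 0.63 (limma adjusted p = 0.80) and from ICB by 2.79 ± 0.63 (limma adjusted p = 0.0429). Isg15 was at 26.4, 70.2 and 34.6 FPKM in GC and 3.74, 6.86 and 6.2 FPKM in ICB, with a difference from GC of -1.11 ± 0.49 (limma adjusted p = 0.294). The Combination and GC libraries overlapped in both genes, whereas all Combination libraries lay above all ICB libraries. Ceacam1 was higher in Combination than in GC (2.5 ± 0.43, limma adjusted p = 0.0254) and than in ICB (3.04 ± 0.43, limma adjusted p = 0.00375). Lgals9 was called against ICB (2.37 ± 0.47, limma adjusted p = 0.0255) and not against GC (1.19 ± 0.47, limma adjusted p = 0.279). Creb3l3 was called against both (limma adjusted p = 0.00806 against GC and 0.00203 against ICB), as was Cyp2b10 (limma adjusted p = 0.000796 and 0.000367), which was listed at 0 in all ICB libraries.

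Of the 85 called genes named here 39 were called without each of the 12 libraries in turn, 26 with only the 6 Control and Combination libraries in the fit, and 18 with the mean of the hepatocyte list as a covariate. Those 18 include Fabp1, Abcg5, Abcg8, Creb3l3, H2-Q1, Mgam, Cyp2b10 and Mttp. With the hepatocyte and small intestinal list means together as covariates limma called 0 genes, these 18 included among the losses.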

How the data were processed

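Per the submitters' processing notes, the authors used FastQC, cutadapt, HISAT2, SAMtools and HTSeq with the mouse build mm10. The authors deposited one table of FPKM for 24421 gene symbols in 12 libraries, and the step that made FPKM and the use of strand in counting are not given in the sources used here, so reads of overlapping or antisense genes may be mixed. Read depth could not be recovered: over 66 pairs of libraries the ratios of low values (under 0.1 FPKM) put a median of 11.1% of genes into one step. No 2 libraries were identical.

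Values were transformed to log2(FPKM + 1), and genes that averaged 1 FPKM or more over the 6 Control and Combination libraries were fitted with limma 3.58.1 in R 4.3.3, with an intensity trend, over all 12 libraries in 4 groups (8 residual degrees of freedom). Tests were two-sided, with Benjamini-Hochberg adjustment over 12695 genes. The fit was tested on simulated data. Lists (47, with 844 of 852 entries found) are described by counts and medians. The libraries were chosen by label, and the lists, comparisons and tests were chosen with earlier results of these data known.

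Genes were named from those called, not overlapping and with a group mean of at least 5 FPKM (up to 10 with the largest rise or fall, and up to 10 of smallest p whose Combination values lay within a factor of 2), from the 4 members of smallest p in each list, and from a set of fixed markers. Apoa4, Ifit3, Oasl1, Isg15 and Sis were added after their values were seen. Alternatives covered the pseudocount, filter, scaling, variance model, covariates, replicate block and each library left out. Promoter windows are from RefSeq (GRCm38.p6), and gene positions from GENCODE M21. Not every gene picked by the naming rule is reported here.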

Additional observations from a re-analysis of the deposited data

How the results depend on the processing

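The counts of genes called depended on the processing, and the cause was not tested. In the fit with estimated library weights Combination replicates 1, 2 and 3 had weights of 0.11, 0.05 and 162.29. All counts with weights below therefore rest, within Combination, almost wholly on replicate 3. Up calls against Control (486) were 88 with only the 6 Control and Combination libraries, 2303 with estimated library weights, 309 with the mean of the hepatocyte list as a covariate, 0 with the hepatocyte and small intestinal means as covariates, 215 to 1506 with 1 library left out, and 159 without Control replicate 2 and GC replicate 2, the muscle-rich libraries, an alternative chosen after seeing the data. Down calls (52) were 33 with no filter, 28 with equal totals, 471 with quantile normalization, 1 with only the 6 libraries, 4514 with weights, 12 and 0 with 1 and both covariates, 5 to 1802 with 1 library left out and 3 without the muscle-rich pair. Genes in any list that rose (110) were 24 with only the 6 libraries, 300 with weights, 48 and 0 with the covariates, 44 to 235 with 1 library left out and 38 without the muscle-rich pair. Those that fell (5) were 3 with no filter, equal totals or median-ratio scaling, 14 with quantile normalization, 0 with only the 6 libraries, 186 with weights, 2 and 0 with the covariates, 1 to 87 with 1 library left out, 1 without the muscle-rich pair and 2 with Combination replicate 1 alone, also chosen after seeing the data.

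Calls against GC (89) were 21 with a pseudocount of 0.1, 6 with a mean of at least 10 FPKM, 47 with median-ratio scaling, 7010 with weights, 296 and 20 with the covariates, 22 to 3091 with 1 library left out, 17 without the muscle-rich pair and 335 with Combination replicate 1 alone. Calls against ICB (303) were 141 with a mean of at least 10 FPKM, 535 with quantile normalization, 7667 with weights, 0 with both covariates, 107 to 2183 with 1 library left out, 155 without the muscle-rich pair and 495 with Combination replicate 1 alone.

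Control and Combination libraries with the same replicate number in their titles did not deviate together (correlations -0.15, -0.06 and -0.22). No Control library correlated best with the Combination library of its own number. The submitters' descriptions number some of these libraries differently, and pairing by those numbers was not tested. With the replicate block limma called 499 genes up and 62 down against Control and 53 against GC.

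Directions turned under the covariates. With the hepatocyte list mean the differences were -0.58 for Alb, -0.65 for Apoa2, -0.07 for Apoc1, -0.63 for Ttr, 0.18 for Msln, -1.20 for H2-Q10, -0.73 for Fgl1, -0.38 for Slc47a1, 0.46 for Vim, -1.06 for Cd5l, -1.41 for Clec4f and -0.05 for Iigp1. With both means they were -0.15 for Alb, -2.18 for Apoa1, -4.98 for Apoa4, -0.64 for Apoc3, -0.02 for Apoa2, -0.41 for Apoc1, 0.51 for Coro6, 1.35 for Adam8, -0.33 for H2-Q10, -1.81 for Fgl1, 0.19 for Kdm3a, -4.14 for Krt8, -4.05 for Krt19, -3.03 for Epcam, 0.26 for Vim and -0.31 for Clec4f. Read depth is unknown, so the precision of low values cannot be given.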

Other observations

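Of the sinusoid and Kupffer cell list, the 2 genes of smallest p were highest in Combination replicate 2 and lowest, within Combination, in replicate 1. Clec4f, a lectin specific to Kupffer cells, stood at 0.907, 57.5 and 26.9 FPKM in Combination and was listed at 0 in all of Control. Cd5l, a protein secreted by tissue macrophages, stood at 0, 0 and 0.893 FPKM in Control and 1.14, 50.5 and 26.8 FPKM in Combination. Limma called 0 of the 11 tested genes of the sinusoid and Kupffer list (7 at an unadjusted p under 0.05; median 1.40), with Clec4f closest (adjusted p = 0.0591). Of the 11 genes 8 had a positive difference and 2 had groups that did not overlap. The whole list made up 0.0138%, 0.0383% and 0.0378% of FPKM in Control and 0.0331%, 0.0462% and 0.0347% in Combination, with overlapping groups.

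Induced GTPases of the interferon gamma response were highest in Combination replicate 2 rather than replicate 1. Iigp1 stood at 0.095, 2.0 and 0.0944 FPKM in Control and 3.21, 82.7 and 11.2 FPKM in Combination (3.41 ± 0.88, limma adjusted p = 0.053), and Irgm2 at 0.598, 2.06 and 0.852 FPKM in Control and 3.69, 19.6 and 6.47 FPKM in Combination (2.1 ± 0.57, limma adjusted p = 0.0608). All Combination libraries lay above all Control libraries in both genes, and neither passed the test.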
